A study of Mus musculus with 9 samples.

Results

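Gene expression was described in untreated mouse small intestinal organoids, the cultures of the study to which nothing was added. Organoids are closed structures of intestinal epithelium grown in a gel from crypts or stem cells. The members were the 3 arrays labelled as untreated, replicates 1 to 3, of 9 arrays in all. The other 6 arrays came from cultures given an inhibitor of the TGF-beta receptors or TGF-beta1, and none of their values was used. Per the labels, all organoids were kept in culture for 6 days, total RNA was extracted and the amplified, biotin-labelled RNA was hybridised to a 3′ expression array of mouse transcripts. The sources used here do not give the strain, age and sex of the mice, the part of the small intestine taken or the culture medium with its growth factors. The labels call the samples triplicates without saying that they came from separate cultures or animals, so the spread given here may be technical.

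The small intestinal epithelium renews itself from stem cells at the base of the crypts, whose daughter cells divide for a short time and then mature. Absorptive enterocytes carry a brush border of microvilli with digestive enzymes and transporters. Secretory cells comprise Paneth cells, which stay beside the stem cells and release antimicrobial proteins, goblet cells, which release mucus, hormone-producing enteroendocrine cells and chemosensory tuft cells. M cells, which lie over lymphoid follicles, are rare. Wnt and Notch signals maintain the crypt base, and BMP signals accompany maturation. In tissue, part of these signals comes from the mesenchyme beneath the epithelium.

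A probe set is a group of short probes that bind near the 3′ end of a transcript, and MAS5 turned each set into a signal on a linear scale in arbitrary units. Each of 18193 genes was read by its brightest probe set that carried a single gene symbol. Values are given as the signals on replicates 1, 2 and 3, or as their mean ± SD (n = 3 arrays). Probe sets bind with unequal strength, so the order of genes below is an order of signals, not of RNA amounts, and a percentile is a gene's place in that order. A background level was set on each array at the 95th percentile of 109 genes of families that are silent outside sense organs and hair, chiefly olfactory and vomeronasal receptors and hair keratin-associated proteins. It lay at 42.6, 36.7 and 38.1. A gene was called above background when its signal passed this level on all 3 arrays, and 10882 genes (59.8%) did, while 6178 genes passed it on none. In these bulk samples, a low signal from fewer cells of a type cannot be told apart from less RNA per cell.

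The 3 arrays were close to each other. Pairwise correlations of log2 signal over the 18193 genes were between 0.992 and 0.993, a description across genes and not across replicates. The median SD of log2(signal + 16) over the 3 arrays was 0.10 for genes above background, 0.22 for genes with a mean signal under 50 and 0.07 for genes between 1000 and 5000. The bacterial hybridisation controls rose in their design order, with mean signals of 279.9 to 463 for bioB and 9873 to 15553 for cre. All 27 Bacillus subtilis control probe sets had mean signals at or under 22.1. The ratio of 3′ to 5′ signal was 0.83 to 0.84 for Gapdh and 1.29 to 1.35 for beta-actin, a narrow range over the 3 arrays.

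The brightest genes were those of protein synthesis, mitochondria and fat uptake, together with lysozyme. Of the 30 genes with the highest mean signal, 16 encoded cytosolic ribosomal proteins, led by Rps3a1 (19857 ± 1171), Rps29 (19552 ± 895) and Rpl38 (19219 ± 1611). Of the 49 ribosomal protein genes that could be read by a single symbol, 46 were above background and 32 stood among the 100 brightest. Fabp1, the liver-type fatty acid binding protein that carries fatty acids inside enterocytes, ranked 4 with signals of 17878, 20237 and 18109. Lyz1, the lysozyme of Paneth cells, ranked 19 with signals of 14446, 17787 and 15735. Both were lowest on replicate 1 and highest on replicate 2, and this order held for most of the group: 29 of the 30 genes were highest on replicate 2 and 26 were lowest on replicate 1.

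Energy metabolism and redox control supplied other members of the 30. Uqcrb (18444 ± 1215) and Cox7a2 (16140.3 ± 999) are subunits of the respiratory chain, and Ldha (15097 ± 1755) makes lactate from pyruvate. Txn1 (16944 ± 862) encodes thioredoxin, Fth1 (15400.2 ± 652) the heavy chain of ferritin and Mt1 (15394 ± 1045) a metallothionein that binds zinc and copper. Dbi (16491 ± 749) encodes an acyl-CoA binding protein, and Atp1b1 (15253 ± 97.2) the beta subunit of the sodium pump. Hspa8 (16642 ± 1149), a chaperone, Eef1a1 (15594 ± 1542), a translation elongation factor, Actg1 (15592 ± 744), a cytoplasmic actin, and Tpt1 (15542 ± 1412) completed the set beside the ribosomal proteins.

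**Figure D1:**
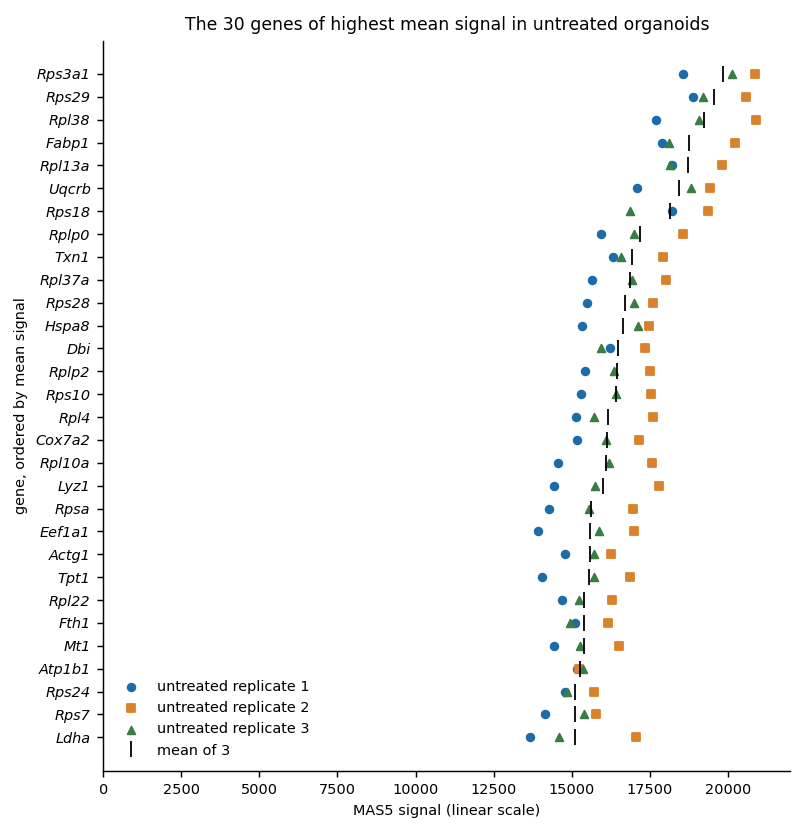
MAS5 signal (horizontal axis, linear, from 0) of the 30 genes of highest mean signal (vertical axis) on the 3 untreated arrays, with the mean as a black tick. Mean signals run from 15097 to 19857, and the points of replicate 2 lie to the right of the others for 29 of the 30 genes.

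Near-identical gene copies limit this order. Of the 30 genes, 9 were read by a probe set whose probes can also bind other transcripts (suffix _x_at), as were 21 of the 100 brightest. Lyz1 was one of them: its 2 such probe sets had mean signals of 15989 and 14858, while its other probe set stood at 182, and without the _x_at sets Lyz1 fell to percentile 53.7. A further 81 probe sets as bright as the 100th gene carried several gene symbols and were not ranked, and 68 of these carried the symbol of a ribosomal protein.

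The 50 gene lists were drawn from general knowledge of the gut, but with earlier results of these data known. Their counts are therefore a description and not independent of the data. The housekeeping lists and most lists of epithelial cell types stood above the share of all genes, and the lists of cells outside the epithelium stood below it. Of 221 measured members of cell type lists, 188 were above background. In lists of functions of absorptive cells it was 103 of 111, and in housekeeping lists 105 of 109. Markers of fibroblasts, leukocytes, endothelium, nerve, blood and muscle gave 17 of 96. The median percentile lay over 50, the value for all genes, in 27 of the 50 lists.

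**Figure D2:**
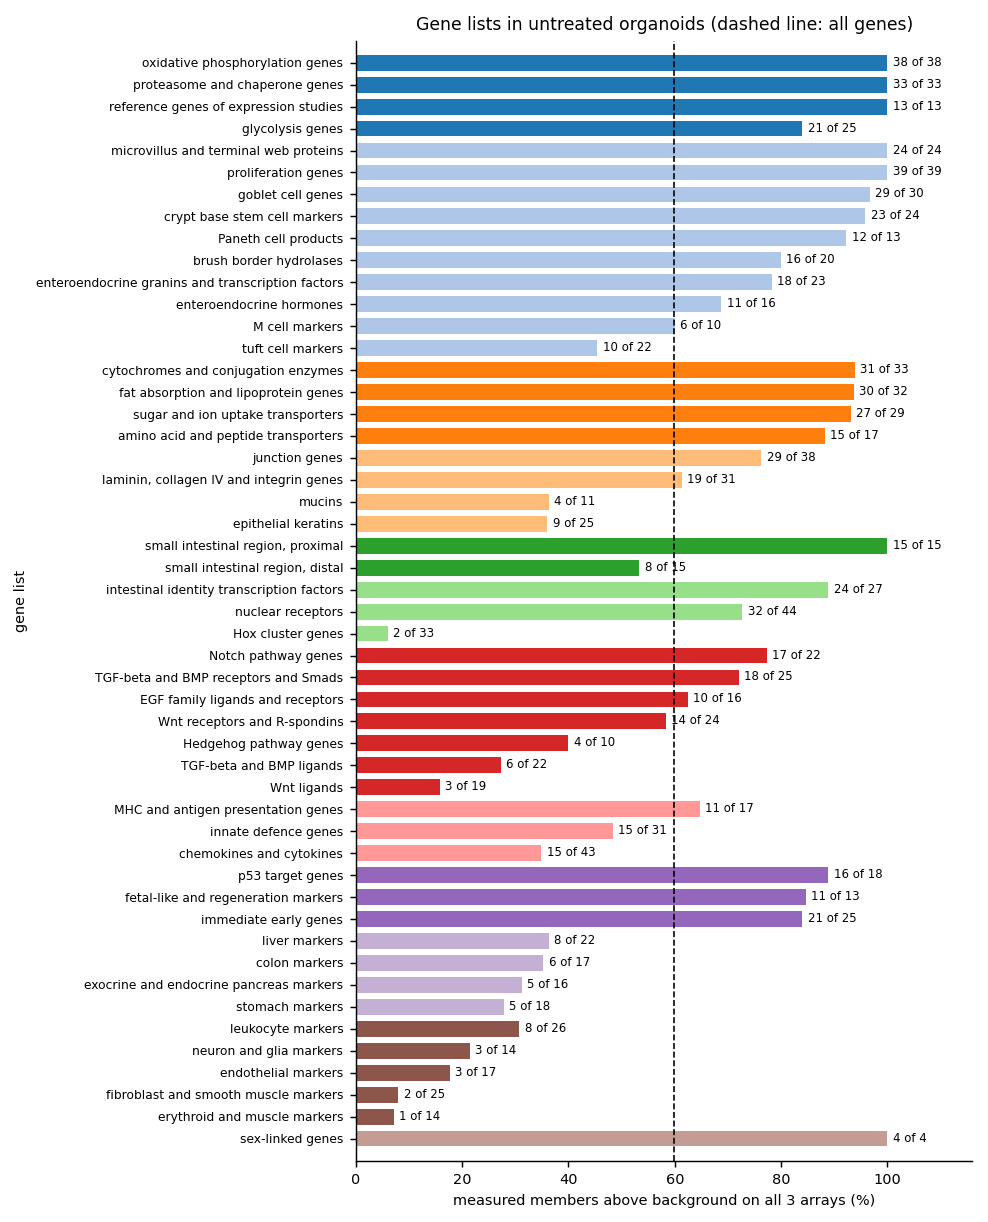
Share of measured members above background on all 3 untreated arrays (bars, percent, from 0) for 50 gene lists, with the counts beside each bar and colours for the kind of list. The dashed line is the 59.8% of all genes; oxidative phosphorylation, proliferation and microvillus lists reach 100% and the Hox, fibroblast and muscle lists lie at the low end.

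Markers of crypt base stem cells were present at high signals. Of 24 measured members, 23 were above background, with a median percentile of 83.1. Olfm4, a secreted glycoprotein that marks crypt base columnar cells, was the brightest, with signals of 12404, 13284 and 12895. Lgr5, the R-spondin receptor that defines these cells, had signals of 2224, 2566 and 2835. Both were lowest on replicate 1 and far above the background level on all arrays. Other members with high signals were Slc12a2 (12467 ± 1117), a chloride cotransporter of crypt cells, Hopx (6881 ± 678), Prom1 (5719 ± 388), Clca4b (4562 ± 389) and Smoc2 (3796 ± 243). The Wnt target Ascl2, a transcription factor of the stem cells, stood lower at 491, 576 and 600.1. Tnfrsf19, also listed as a stem cell marker, passed the background level on a single array (19.6, 24.2 and 57.5).

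All 39 proliferation genes were above background, with a median percentile of 89.6. The brightest were Pcna (9543 ± 933), the clamp of DNA polymerase, Stmn1 (6429 ± 455), Mcm7 (5517 ± 516), a subunit of the replicative helicase, and Ccnd2 (5511 ± 524), a cyclin of the G1 phase. Mki67, the marker of cycling cells, had signals of 3614, 3802 and 3618. Top2a, the topoisomerase that untangles DNA before mitosis, had 3693, 3962 and 3964, and Ccnb2, a mitotic cyclin, had 2393, 2628 and 2469. Signals of these 3 genes were similar on all 3 arrays. Tyms, which makes thymidylate, was the dimmest member at 85.7, 69.5 and 97.4.

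Promoters were set beside the signals by the letters they hold. The 250 bases before each transcription start were searched on both strands for TATAAA, for CCAAT, for the GATA-type motif GATAAG, for the GC box GGGCGG and for the Cdx-type core TTTATG, in the RefSeq promoter table of build GRCm38.p6 that matched 14452 of the 18193 measured genes. CCAAT stood in 23 of 30 promoters of the proliferation list (76.7%), in 33.8% of the table's 32851 promoters and in 35.6% of those of genes above background. GGGCGG stood in 76.7% of the proliferation promoters too, in 32.7% of all and in 57.6% of those of genes above background. TATAAA stood in 0 of the 30, in 12.4% of all and in 6.60% of those of genes above background. GATAAG stood in 0 of the 30 and TTTATG in 2 (6.67%), against 4.80% and 6.12% of those of genes above background. Top2a and Ccnb2 are shown because each holds CCAAT on either strand more than once within the 80 bases before its start. Capitals mark CCAAT or its complement ATTGG. The stretch of Top2a is chr11:99024190-99024269 on the minus strand and that of Ccnb2 is chr9:70421555-70421634 on the minus strand, each written 5′ to 3′ as transcribed.
Top2a: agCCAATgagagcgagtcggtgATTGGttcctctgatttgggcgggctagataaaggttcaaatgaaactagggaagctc
Ccnb2: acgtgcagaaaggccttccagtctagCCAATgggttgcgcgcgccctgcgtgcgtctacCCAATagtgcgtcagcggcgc
In Top2a the motif begins 78 and, on the other strand, 58 bases before the start, and in Ccnb2 it begins 54 and 21 bases before it. A match describes letters and shows no bound factor.

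Paneth cell products were among the brightest cell type lists, with 12 of 13 above background and a median percentile of 91.4. Beside Lyz1, the list was led by Spink4 (11628 ± 1293), Itln1 (11215 ± 1194), a lectin, and Ang4 (9075 ± 1389.9), a ribonuclease with antimicrobial activity. Spink4 and Ang4 are also made by goblet cells and stand in both lists. Guca2b (3754 ± 259) encodes uroguanylin and Pnliprp2 (3264 ± 291) a lipase. Mmp7, which activates the alpha-defensins, had signals of 1139.5, 1535 and 1672 and was lowest on replicate 1. Alpha-defensins themselves share most of their sequence. The probe set for Defa30 and Defa24 together had signals of 13839, 15975 and 15700, and the one for Defa22 and Defa21 together had 5012, 6216 and 5669.7. Defa3, the listed alpha-defensin with a probe set of a single symbol, stayed under the background level on all arrays (41.6, 26.1 and 34.7).

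Goblet cell genes were above background in 29 of 30 cases, with a median percentile of 75.05. Tff3, the trefoil peptide of goblet cells, had signals of 9285, 11446 and 10536. Muc2, the gel-forming mucin of the intestine, had 2324, 2535 and 2433. Muc13 (5639 ± 275), a membrane mucin, and Fcgbp (4997 ± 276), a mucus protein bound to Muc2, stood between them in signal. The transcription factors that commit cells to the secretory and goblet fates were dimmer: Atoh1 had signals of 279, 340.1 and 346 and Spdef had 174, 219.9 and 269. Retnlb, a goblet cell product that is induced by gut bacteria and worms, was far under background at 1.24, 1.15 and 1.88. Of 11 mucin genes, 4 were above background, namely Muc2, Muc13, Muc3 (4555 ± 44.3) and Muc4 (754 ± 22.4), and the stomach mucin Muc5ac was not (2.68, 6.83 and 4.85).

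Enteroendocrine genes were detected for several hormone lineages. Of 16 hormone genes, 11 were above background (68.8%), a share near that of all genes. Gip, the incretin of duodenal K cells, was the brightest with signals of 2047, 2087 and 2461. Tac1 (1548 ± 66.1), which encodes substance P of enterochromaffin cells, Cck (1509.9 ± 79.4), the cholecystokinin of I cells, and Gcg (1033 ± 43.1), the source of GLP-1, followed. Ghrl, for ghrelin, had 517, 613 and 606 and Sst, for somatostatin, had 411, 514 and 459. Pyy, a hormone of the distal gut, was close to the background level at 59.9, 59.9 and 54.3. Gast, for gastrin, and Vip, a neuropeptide, were under it on all arrays (11.8, 15.7 and 8.47 and 15.04, 8.44 and 11.8).

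In the list of granins and transcription factors of these cells, 18 of 23 genes were above background. The list also held enzymes, such as Ddc and Cpe, and the hormone gene Sct, which stands in the hormone list too. Chgb (5098 ± 451) was brighter than Chga, whose signals were 411, 533 and 602, although signals of different probe sets do not rank RNA amounts. Ddc (2528 ± 228) makes serotonin and dopamine, and Cpe (667 ± 25.4) trims prohormones. Neurog3, the factor that commits progenitors to the endocrine fate, had signals of 445, 631 and 609 and Neurod1, its target, had 242, 338 and 339. Both were lowest on replicate 1.

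Tuft cell markers were mostly dim, and M cell markers were mixed. Of 22 tuft cell markers, 10 were above background (45.5%, under the 59.8% of all genes), and 3 when the level was set at the 99th percentile of the silent families. Ptpn6, a phosphatase also found in leukocytes, was the brightest (395, 386 and 528). Il17rb, the IL-25 receptor chain, had 205, 177 and 216, Rgs13 had 106, 134 and 195 and Avil, an actin-binding protein, had 108, 112 and 117. Dclk1, the marker by which tuft cells are usually found, had signals of 75.2, 74.95 and 93.3 with the brightest of its 9 probe sets. Trpm5, the taste channel, passed the level on 2 arrays (42.8, 40.6 and 31.2), and the lineage factor Pou2f3 on none (26.6, 20.9 and 31.1). Of 10 M cell markers, 6 were above background (60%, close to the 59.8% of all genes). They were led by Marcksl1 (1256 ± 157) and Anxa5 (703 ± 159.7), which other cells also make. Gp2, the M cell receptor for bacteria, was under background (18.2, 17.5 and 4.33), as was the M cell factor Sox8 (7.32, 1.61 and 2.95).

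**Figure D3:**
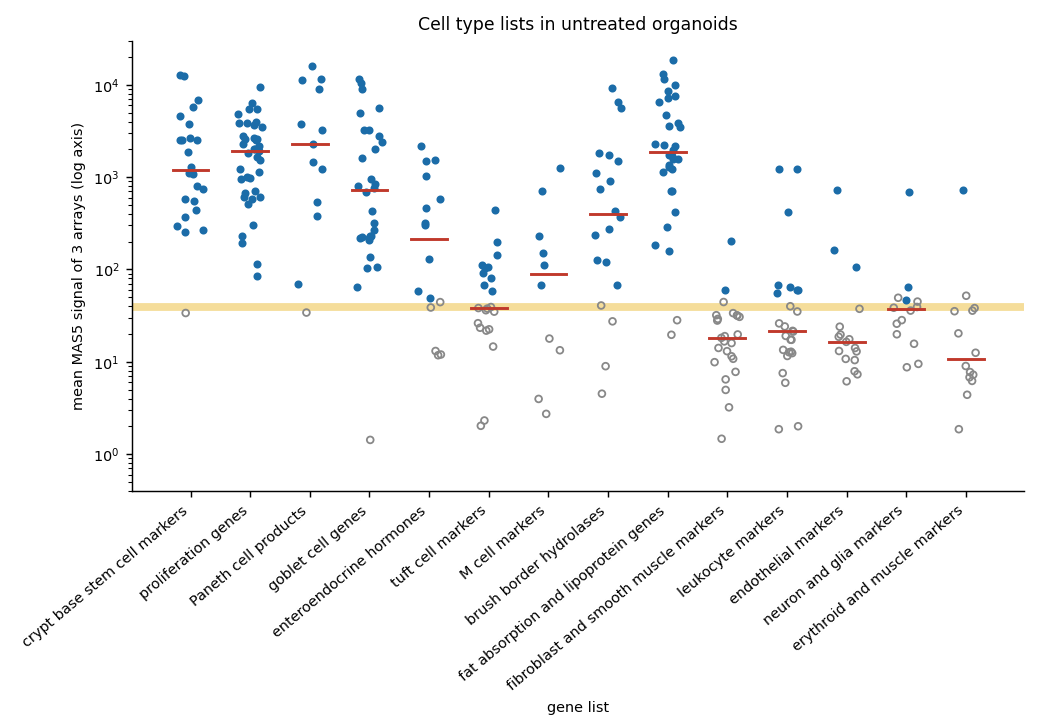
Mean MAS5 signal over the 3 untreated arrays (vertical axis, log scale) of each measured member of 14 lists, with filled points for genes above background on all 3 arrays, open points for the others and a red line at each list's median. The yellow band spans the 3 background levels (36.7 to 42.6); medians of the stem, proliferation, Paneth and fat absorption lists exceed 1000 and those of the 5 lists outside the epithelium lie at or below the band.

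Brush border genes of mature enterocytes were well represented. All 24 genes of the microvillus and terminal web were above background, with a median percentile of 87.1. Vil1, the actin bundler villin, had signals of 5506, 5555 and 5449, which differed by little between arrays. Slc9a3r1 (7929.8 ± 36.8) and Ezr (5647 ± 329) link membrane proteins to actin, and Pls1 (4025 ± 109) bundles it. In the list of brush border hydrolases, 16 of 20 genes were above background. Amn (1228, 1154 and 913) and Cubn, receptor proteins and not hydrolases, also stood in this list, and only Amn was above background. Alpi, the alkaline phosphatase of mature enterocytes, had 9154, 9617 and 8579. Mgam (6442 ± 672) splits starch fragments, and Enpep (5543 ± 494), Mep1b (1825 ± 99.7), Mme (1738 ± 362) and Dpp4 (1493 ± 46.5) split peptides. Lct, the lactase of the suckling and proximal gut, had 365, 362 and 386. Tmprss15, the enteropeptidase of the duodenum that activates trypsin, was under background on all arrays (2.997, 11.2 and 12.7).

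Nutrient transporters covered sugars, ions, amino acids and peptides. Of 29 sugar and ion transporter genes, 27 were above background, and of 17 amino acid and peptide transporter genes, 15 were. Slc5a1, the sodium-coupled glucose transporter SGLT1, had signals of 7879, 7795 and 6672, Slc2a2, the basolateral glucose transporter GLUT2, had 4649, 4282 and 3607, and both were lowest on replicate 3. Slc26a3 (3380.4 ± 364) exchanges chloride for bicarbonate, Heph (2347 ± 119.8) oxidises iron for export, and Cftr, the chloride channel of crypt cells, had 1892, 2296 and 2107. Slc38a2 (4995 ± 268), Slc3a2 (1981 ± 25.6), Slc7a9 (1979.8 ± 278) and Slc3a1 (1732 ± 130.1) carry amino acids, and Slc6a19 (1196 ± 175) takes up neutral ones at the brush border. Trpv6, the calcium channel induced by vitamin D, passed the background level on a single array (5.29, 41.6 and 23.3). Of 347 solute carrier genes of any kind, 228 were above background (65.7%), a share close to that of all genes.

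Genes of fat absorption formed a bright list, with 30 of 32 above background, a median percentile of 89.1 and 24 members with a mean signal over 1000. After Fabp1 came Fabp2 (13219.7 ± 690.0), the intestinal fatty acid binding protein, and the apolipoproteins Apoa1 (11566 ± 739) and Apoa4 (9981 ± 810.4) of chylomicrons. Acsl5 (8573 ± 294) activates fatty acids, and Sar1b (7527 ± 144) carries chylomicrons from the endoplasmic reticulum. Mttp, which loads lipid onto apolipoprotein B, had signals of 6867, 6657 and 5999, and Npc1l1, the cholesterol importer, had 3865, 3539.5 and 3017. Both were lowest on replicate 3. Fabp6, the ileal bile acid binding protein, was under background (24.2, 25.3 and 35.1), as was Apoe (31.3, 12.6 and 14.96).

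TATAAA stood in 9 of 31 promoters of the fat absorption list (29.0%) and in 7 of 22 of the brush border hydrolase list (31.8%). In the cytochrome and conjugation list it stood in 10 of 37 (27.0%). The share was 12.4% of all promoters in the table, 8.81% of those of measured genes and 6.60% of those of genes above background. GGGCGG stood in 57.6% of promoters of genes above background and in 32.4% of those of the other measured genes. In the fat absorption, hydrolase and cytochrome lists, GATAAG stood in 12.9%, 9.09% and 10.8% of promoters, and TTTATG in 19.4%, 9.09% and 8.11%. Among genes above background these shares were 4.80% and 6.12%, and among the 100 brightest genes 12.1% and 6.54%. Promoters of cytosolic ribosomal proteins held GATAAG in 17.6% and TTTATG in 0 of 51. The 80 bases before the start of Fabp1 (chr6:71199799-71199878, plus strand) and of Reg1 (chr6:78425903-78425982, plus strand) are shown because both genes are among the 100 brightest and hold TATAAA at the same distance. Capitals mark TATAAA. Matches of CCAAT and GGGCGG can share bases with each other, and those of TATAAA and TTTATG cannot.
Fabp1: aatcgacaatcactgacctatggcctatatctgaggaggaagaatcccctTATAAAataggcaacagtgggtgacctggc
Reg1: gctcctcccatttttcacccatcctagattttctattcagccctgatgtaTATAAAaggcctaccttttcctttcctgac
In both genes TATAAA begins 30 bases before the start. Both stretches are written 5′ to 3′ as transcribed.

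Enzymes that modify drugs and foreign compounds were also bright. Of 33 cytochromes and conjugation enzymes, 31 were above background, with a median percentile of 92.4, whereas 33 of the 73 cytochrome P450 genes read on the array were (45.2%). Gstp1 (13596 ± 868), Mgst1 (13173 ± 1153), Gstm3 (10235 ± 751) and Gsta4 (10096 ± 322) are glutathione transferases, and Ugt2b34 (9001 ± 429.6) adds glucuronic acid. Cyp3a11, a main drug-oxidising cytochrome of mouse gut and liver, had signals of 6921, 7299.8 and 5731 and was lowest on replicate 3. Cyp1a1, the enzyme induced through the aryl hydrocarbon receptor, was under background on all arrays (14.4, 19.5 and 7.79).

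In the list of intestinal identity transcription factors, 24 of 27 genes were above background. Ihh (780 ± 47.9), a ligand, and Zfp36l1 (3322 ± 25.5), an RNA-binding protein, also stood in this list and were above background. Hnf4a, the nuclear receptor that drives enterocyte genes, was the brightest with signals of 7378, 7744 and 7699. Cdx2, the homeobox factor that sets intestinal fate, had 2270.4, 2116 and 2181. Klf5 (5899.6 ± 88.5), a factor of crypt cells, Mlxipl (3368 ± 212), a sugar-responsive factor, Elf3 (2309.6 ± 97.7) and Gata6 (2287 ± 233) were other bright members. Isx, a repressor of vitamin A uptake, was under background (4.69, 2.55 and 4.49). Among 44 nuclear receptors, 32 were above background. After Hnf4a the brightest were Nr1d2 (2589 ± 277), Nr2c2 (2264 ± 149.8), the vitamin D receptor Vdr (2106 ± 75.6) and the glucocorticoid receptor Nr3c1 (1979 ± 166). Esr2 and Pgr, receptors for oestrogen and progesterone, were under background on all arrays (10.996, 17.6 and 9.83 and 20.5, 29.9 and 12.8).

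All 15 markers of the proximal small intestine were above background, with a median percentile of 85.9, and 8 of 15 distal markers were (53.3%), close to the 59.8% of all genes. The duodenal Tmprss15, which stands in the hydrolase list above and not among these markers, was under background. Gata4, the factor that marks duodenum and jejunum, had signals of 1007, 1027 and 1009, and Onecut2, a duodenal factor, had 1157, 916 and 1044. Adh6a (3614 ± 123) and Rbp2 (3564 ± 416), which handle alcohol and retinol, were brighter members. Of the ileal markers, Slc10a2, the bile acid importer, was under background on all arrays (1.94, 1.69 and 3.38), as was Fabp6, while Muc3 and Guca2a (2747, 3429 and 3244) were well above it. Of 33 Hox genes, 2 were above background on all arrays: Hoxa5 (132, 145 and 145) and Hoxa3 (66.4, 60.7 and 75.1). Hoxb2 (15.1, 95.4 and 72.9) and Hoxb4 (34.8, 60.6 and 57.9) passed the level on replicates 2 and 3, so that the count became 4 without replicate 1, and it was 1 at the 99th percentile of the silent families.

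Ligand genes of the Wnt, TGF-beta and BMP families were mostly under background. Of 24 genes for Wnt receptors and R-spondins, 14 were above it (58.3%), a share close to the 59.8% of all genes. Lgr4 (3516 ± 292), Fzd5, the frizzled receptor of Paneth cells (1977, 1742 and 1681), and the coreceptor Lrp6 (1202, 993 and 1097) were bright, and Znrf3 (739 ± 61.2), a ligase that removes frizzleds, was above background. The R-spondins, which are supplied to organoid cultures as a protein in common protocols, were all under background, the brightest being Rspo2 (28.3, 28.7 and 32.6). Of 19 Wnt ligand genes, 3 were above background: Wnt7b (166, 124 and 164), Wnt6 (79.8, 71.9 and 90.4) and Wnt7a (70.1, 46.8 and 60.2), and only Wnt7b at the 99th percentile of the silent families. Wnt3, the ligand known from Paneth cells, was under it on all arrays (14.7, 12.8 and 15.6).

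In the list of TGF-beta and BMP ligands and extracellular inhibitors, 6 of 22 genes were above background. The 6 include Bmp1 (53.5, 59.98 and 81.7), a protease that is neither. The count was 2 at the 99th percentile of the silent families and 10 at the 40th percentile of all probe sets. Bmp2, a ligand of the villus epithelium, was by far the brightest with signals of 957, 934 and 952, followed by Bmp7 (215, 230.1 and 246). Tgfb1, the ligand that the study added to other cultures, was close to the background level at 61.4, 42.6 and 55.1. Nog and Grem1, secreted BMP inhibitors, were under it (20.9, 8.31 and 6.65 and 17.6, 23.7 and 17.96). The list of TGF-beta and BMP receptors and Smads was brighter, with 18 of 25 genes above background. Ltbp1, Ltbp2, Ltbp3 and Ltbp4, binding proteins of latent TGF-beta and neither receptors nor Smads, also stood in this list. Of these, only Ltbp3 was above background. Smad4, the shared Smad, had 4361, 4559 and 4315, Tgfbr2 had 3921, 4191 and 4123, Tgfbr1 had 1204, 1349 and 1311 and the BMP receptor Bmpr1a had 2642, 2879.6 and 2641. All 4 varied by little between arrays.

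Of 16 EGF family genes, 10 were above background (62.5%), a share close to the 59.8% of all genes. The receptors Erbb3 (3353, 3234 and 3135), Erbb2 (695, 617 and 558) and Egfr (425, 429.6 and 435) were above it, and Erbb4 was not (0.985, 0.323 and 4.46). Among ligands, Btc (481, 618 and 813), Hbegf (673, 558 and 668) and Tgfa (572, 603 and 602) were the brightest, and Btc was highest on replicate 3. Egf itself passed the level on 2 arrays (34.2, 58.1 and 69.4). Lrig1 (2542 ± 416) and Errfi1 (2052 ± 38.9), both inhibitors of these receptors, were bright.

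Notch genes were above background in 17 of 22 cases. The ligands Dll1 (865, 876 and 831) and Jag1 (653, 617 and 591), the receptor Notch1 (459, 451 and 365) and the target Hes1 (989, 869.8 and 945) were all well above it. Hes6 (1504 ± 23.4) and Nrarp (1034 ± 87.7) were the brightest members, and the targets Hey1 and Hey2 were under background (6.72, 19.7 and 4.74 and 2.06, 0.916 and 5.598). In the Hedgehog pathway, the ligand Ihh (795, 726 and 818) and the receptor Ptch1 (1000.2, 1001 and 1012) were above background, as were Smo (249 ± 23.3) and Sufu (197 ± 17.5). The 3 Gli factors that carry the signal to the nucleus were under it: Gli1 had 32.9, 29.8 and 14.9, Gli2 had 22.4, 16.7 and 13.9 and Gli3 had 21.8, 7.42 and 12.8.

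**Figure D4:**
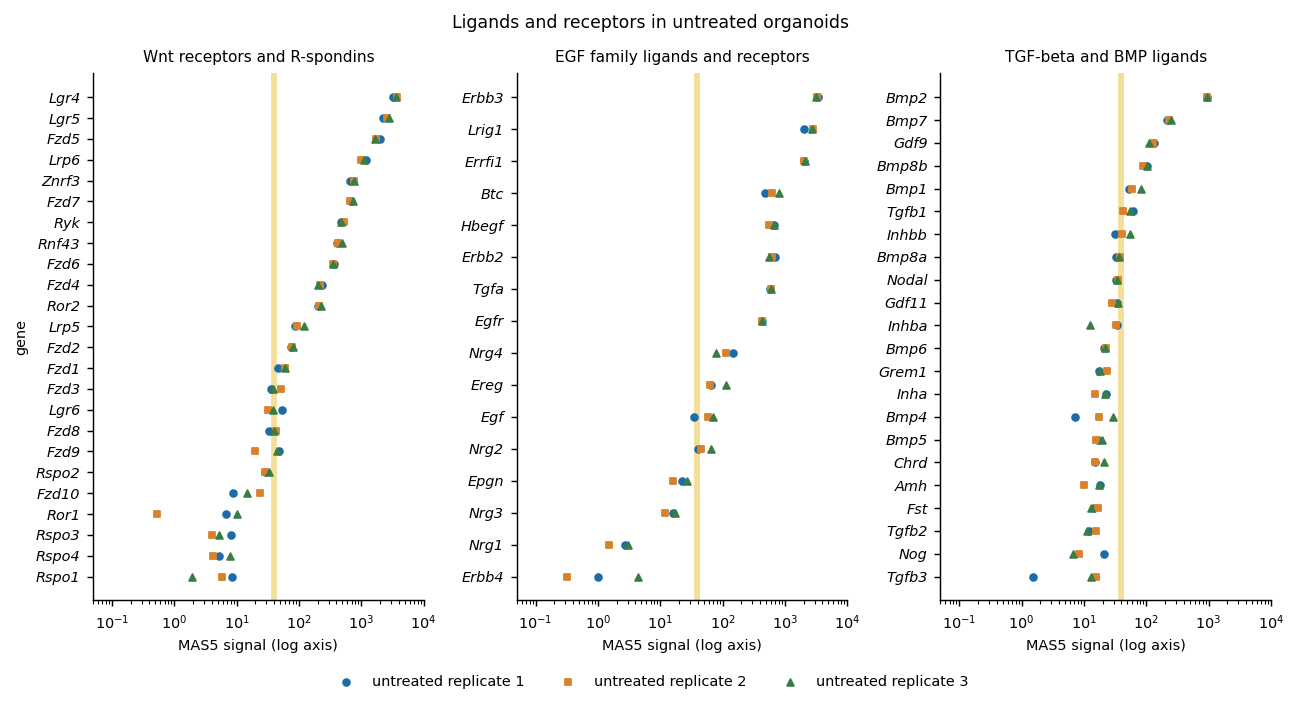
MAS5 signal (horizontal axis, log scale) on each untreated array, with the 3 background levels as a yellow band. Shown are 24 Wnt receptor and R-spondin genes, 16 EGF family genes and 22 genes of the TGF-beta and BMP ligand list. Receptors such as Lgr4, Lgr5, Erbb3 and Egfr lie to the right of the band on all arrays, and the R-spondins, most genes of the TGF-beta and BMP list and the neuregulins Nrg1 and Nrg3 within it or to its left.

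Structural genes of simple epithelia gave high signals. Krt8 (12970.4, 14013 and 14416), Krt18 (10526 ± 962) and Krt19 (9471 ± 601), the keratins of simple epithelia, led the 9 of 25 keratins above background, a share of 36.0% that lies under that of all genes. Keratins of stratified epithelia were mixed: Krt14 (6.35, 19.7 and 3.11) and Krt1 (2.72, 17.7 and 13.6) were under background, and their partners Krt5 (72.9, 44.1 and 81.7) and Krt10 (187, 229 and 222) were above it. Of 38 junction genes, 29 were above background. Epcam, an adhesion protein of epithelia, had 11279.9, 11649 and 10745, E-cadherin, Cdh1, had 9320.0, 9134 and 9602, and beta-catenin, Ctnnb1, had 10363, 12053 and 11204. Cldn7 (6809 ± 108), Dsg2 (7359.6 ± 178) and Dsp (7099 ± 279) belong to tight junctions and desmosomes, and N-cadherin, Cdh2, was under background (3.61, 0.586 and 7.76). In the laminin, collagen IV and integrin list 19 of 31 were above background (61.3%, close to the share of all genes), led by Dag1 (4631 ± 129), Itga6 (3728 ± 248) and Cd151 (1900.4 ± 54.9). Col4a1 (28.9, 30.05 and 23.99) and Lama1 (2.01, 2.34 and 8.801), components of basement membrane and of the usual culture gel, were under it as transcripts. Other components of the same matrix were above it, among them Hspg2 (276 ± 38.6), Lamc1 (231 ± 9.66), Lamb1 (96.2 ± 23.7) and Nid1 (80.3 ± 14.01).

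Defence genes were uneven. Of 31 innate defence genes, 15 were above background (48.4%, under the 59.8% of all genes). Reg1, a secreted lectin, had signals of 12064, 13629.6 and 10549, Pigr, the transporter of immunoglobulin A, had 10299.6, 11180.0 and 10117, and Lypd8, which keeps bacteria off the epithelium, had 8136, 8796 and 7503. Reg3b, an antimicrobial lectin, had 4516, 4442 and 2491 and was lower on replicate 3 than on the others. Tlr4 (13.1, 12.6 and 11.4), the receptor for endotoxin, Nos2 (2.64, 8.15 and 2.48) and Lcn2 (2.59, 7.07 and 1.64), genes induced in inflammation, were under background. Of 43 chemokines and cytokines, 15 were above it (34.9%, also under the share of all genes). Ccl25, the chemokine that draws T cells to the small intestine, was the brightest at 6888, 7455 and 6493, followed by Ccl28 (1443 ± 26.9) and Il18 (1131 ± 127), while Il6 (0.836, 0.921 and 0.622) and Tslp (0.551, 0.363 and 0.472) were at the bottom. MHC class I genes H2-K1 (7684, 8344 and 7911) and B2m (6413, 7161 and 5959) were bright. Of the class II genes, H2-Ab1 was near the level (64.3, 52.8 and 72.995) and H2-Aa under it (16.8, 23.7 and 19.2). In all, 11 of 17 genes of antigen presentation were above background (64.7%, close to the share of all genes), and 7 at the 99th percentile of the silent families.

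Housekeeping lists gave the reference for these values. All 38 oxidative phosphorylation genes (median percentile 98.7), 33 proteasome and chaperone genes (96.4) and 13 reference genes of expression studies (98.2) were above background. So were 21 of 25 genes of the glycolysis list, which also held enzymes of glucose synthesis and fructose use, such as Fbp1, Fbp2, G6pc and Khk. Eef1a1 and Rplp0 (15950.0, 18562 and 17000.2) were the brightest of the reference genes after Rpl13a, and Tbp the dimmest (600.5, 617 and 642). Families chosen by symbol after values had been seen gave 76 of 76 mitochondrial ribosomal proteins, 37 of 40 proteasome subunits and 0 of 39 olfactory receptors above background. The olfactory receptors belong to the silent families that set the level.

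Lists of stress and growth factor responses were also mostly above background. Of 18 p53 target genes, 16 were above background, led by Cdkn1a, the p21 inhibitor of cell division (3475, 3639 and 3758), Ccng1 (3140.2 ± 134) and Perp (2738 ± 57.97). Of 25 immediate early genes, 21 were, led by Fos (6438, 6393 and 4803) and Egr1 (5432, 5271 and 4531), and both were lowest on replicate 3.

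Markers of cells outside the epithelium were mostly under background, including Col1a1, Ptprc, Pecam1 and Tubb3, which define these cells. Of 25 fibroblast and smooth muscle markers, 2 were above background: Vim (181, 197 and 235), an intermediate filament, and Col6a2 (66.7, 55.9 and 58.6). Col1a1, the main collagen of fibroblasts, was under it (10.5, 16.2 and 7.72), as were Pdgfrb (22.3, 19.1 and 13.02) and Myh11 (6.82, 9.06 and 7.45). The count ran from 1 to 5 under other background levels. The list's summed signal over the 3 arrays ran from 675 to 725.

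Of 26 leukocyte markers, 8 were above background, and 3 at the 99th percentile of the silent families. Lcp1, an actin bundler (1104, 1193 and 1401), Lyz2, a second lysozyme gene that also stands in the Paneth list (1110.0, 1329.5 and 1197), and Kit, a receptor also known from crypt cells (399.9, 414 and 435), were the brightest. Ptprc, the antigen CD45 of all leukocytes, was under background on all arrays (14.5, 13.2 and 24.3), as were Cd3e (9.94, 17.8 and 9.48) and Cd79a (1.73, 1.61 and 2.67). Of 17 endothelial markers, 3 were above background: Lyve1 (768, 729 and 661), Esam (151, 144 and 190.0) and Egfl7 (104, 126 and 85.2). Pecam1 (17.6, 14.9 and 6.35) and Cdh5 (21.01, 22.3 and 12.7), which define endothelium, were under it. Of 14 markers of neurons and glia, 3 were above background: Mbp (731, 705 and 635), Nefm (50.6, 67.7 and 75.9) and Ret (45.3, 36.8 and 56.96). Mbp was read by the brightest of its 8 probe sets, and the next brightest had a mean signal of 89.1. Tubb3 (9.77, 10.6 and 8.13), which defines neurons, was under background. The count became 6 without replicate 1 and 1 at the 99th percentile. Of 14 erythroid and muscle markers, Acta1 (521, 479 and 1167) was the single gene above background, and the haemoglobin gene Hba-a1 (5.23, 4.77 and 8.62) was under it. The count became 2 without replicate 1 or without replicate 3.

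Lists for other organs gave 24 of 73 members above background. Of 22 liver markers, 8 were, led by Cps1 (12685, 15436 and 14811) and Otc (6692, 6772 and 6497), enzymes that the small intestine also uses in citrulline synthesis, and Ttr (3457, 4473 and 3746). Albumin, Alb, was close to the level (50.9, 64.4 and 75.7), and fibrinogen Fgb was under it (1.28, 3.16 and 1.56). At the 99th percentile of the silent families the liver count was 5. Of 18 stomach markers, 5 were above background, among them Anxa10 (652, 636 and 1107) and Tff1 (393, 346 and 495), while Gkn1 (9.002, 6.95 and 3.63) and Atp4b (10.3, 18.05 and 8.27) were under it, and the count was 2 at the 99th percentile. Of 17 colon markers, 6 were above background, led by Car2 (285, 290.4 and 403), and Car1, a carbonic anhydrase of colonocytes, was not (17.6, 15.3 and 7.84). The colon count was 2 at the 99th percentile. Of 16 pancreas markers, 5 were above background, led by Zg16 (2810.1 ± 466), a lectin that goblet cells also make, and Rnase1 (1045 ± 178), and the insulin gene Ins2 was not (10.04, 19.1 and 23.3).

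The 4 sex-linked genes were above background on every array. Xist, the transcript of the inactive X chromosome in females, had signals of 6056, 6839.9 and 6696. Of the Y-linked genes, Ddx3y is not analysed here. Eif2s3y (1168, 1027 and 947), Kdm5d (323, 369 and 305) and Uty (258, 201 and 237), also Y-linked, were above background on the same arrays. The labels give neither the sex nor the number of the mice, and the source of the joint signals was not tested.

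Although the 3 arrays were close, members of some lists deviated the same way on 1 array. Among all genes above background, 36.5% were lowest on replicate 1, 30.03% on replicate 2 and 33.4% on replicate 3, and 32.0% were highest on replicate 3. Of the 11 fetal-like and regeneration markers above background, 10 were highest on replicate 3. Their median log2 deviations from the gene's own mean were -0.16, -0.18 and 0.34 on replicates 1 to 3. Here and below, deviations were centred on each array's median deviation over all genes above background. The fetal-like and regeneration markers are genes of the fetal intestine and of repair after injury. Anxa1 had signals of 376, 462 and 816, S100a6 had 2344, 2387 and 3284 and Clu, the marker of revival stem cells, had 112, 122 and 341. Sprr1a had 735, 735 and 1053. In each of these 4 genes replicate 3 stood above both other arrays. Basp1 was the exception, highest on replicate 1 (70.2, 39.9 and 41.02). Other lists were also mostly highest on replicate 3, with smaller median deviations there. It was the highest array for 8 of 10 tuft cell markers (0.16) and 7 of 9 keratins (0.08). The same held for 13 of 18 genes of the granin and transcription factor list (0.14) and 13 of 19 of the laminin, collagen IV and integrin list (0.05).

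Fat absorption genes and cytochromes of mature enterocytes were mostly lowest on replicate 3. Of 30 fat absorption genes above background, 28 were lowest on replicate 3, and of 31 cytochromes and conjugation enzymes 24 were, with median deviations on that array of -0.10 and -0.13. Bco1, which splits beta-carotene, had signals of 1485, 1112 and 837 and Ces1f, a carboxylesterase, had 4188, 3588 and 2506. Genes of the brush border hydrolase list were lowest on replicate 3 in 11 of 16 cases. Members of the microvillus and terminal web list were split, with 13 of 24 lowest and 9 highest on replicate 3 and median deviations of 0.02, -0.03 and -0.02 on replicates 1, 2 and 3. Replicate 1 was the lowest array for 20 of 23 stem cell markers (median deviation -0.12), 24 of 29 goblet cell genes (-0.11) and 10 of 12 Paneth cell products (-0.21). The same array was also lowest for 25 of 39 proliferation genes and 25 of 33 proteasome and chaperone genes. It was lowest for 9 of 13 reference genes, 11 of 21 genes of the glycolysis list and 17 of 38 oxidative phosphorylation genes. Pla2g2a, a phospholipase of Paneth cells, had signals of 268, 368 and 495. With 3 arrays of 1 group there is no test of these differences, and members of a list are not independent replicates. On the same arrays, the median deviations of the leukocyte list were -0.03, -0.06 and 0.10, and the 3′ to 5′ ratios differed by at most the range given above. The hybridisation control probe sets of bioB, bioC, bioD and cre were all lowest on replicate 1, with 13961, 16699 and 15999 for the brightest. Genes with a mean signal over 5000 had median deviations of -0.05, 0.07 and -0.01 before centring. The part of these values in the differences was not tested.

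**Figure D5:**
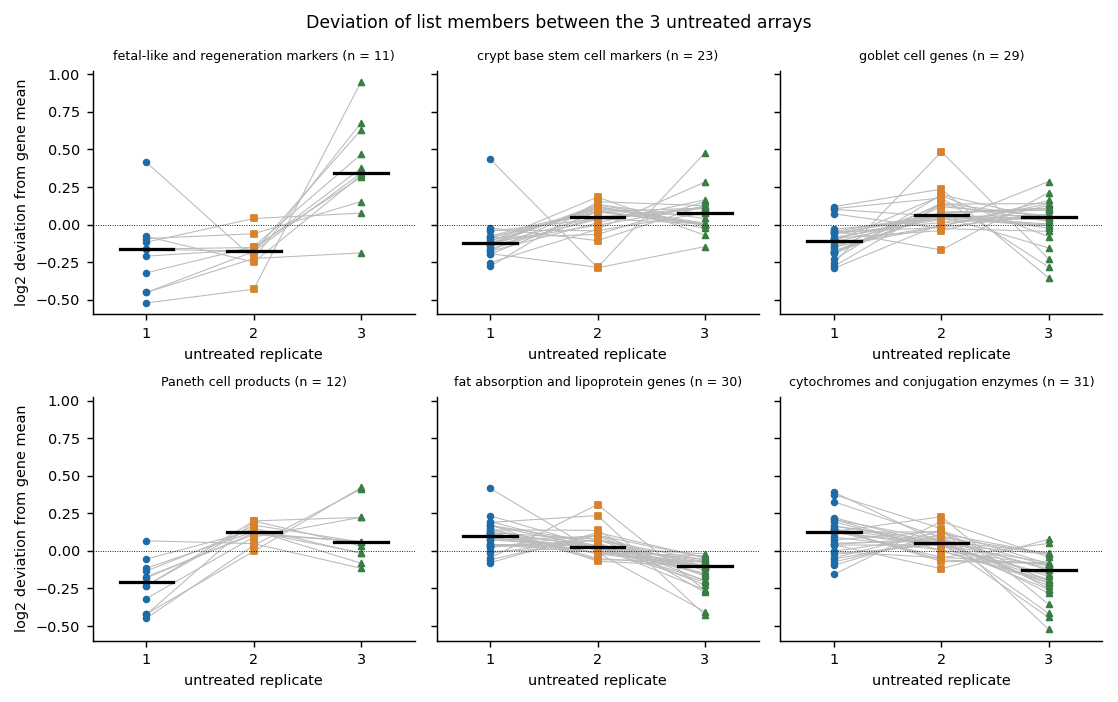
Log2 deviation of each member above background from its own mean (vertical axis) on untreated replicates 1 to 3 (horizontal axis) in 6 lists, with a grey line per gene and a black bar at the median. Deviations are centred on each array's median deviation over all genes above background. Fetal-like markers are highest on replicate 3 (median 0.34), fat absorption genes and cytochromes lowest there (-0.10 and -0.13), and stem, goblet and Paneth lists are lowest on replicate 1.

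The single genes that differed most between the arrays, among those above background with a mean signal of at least 200, were led by Malat1. This nuclear long noncoding RNA had signals of 6173, 1904 and 7665, lowest on replicate 2 by a factor of 4.03 against the highest array. Its next brightest probe set was also lowest there, with 3736, 1362 and 4293. Acta1, the skeletal muscle actin, was highest on replicate 3 (signals above), as were Anxa3 (522, 620.0 and 1165), Anxa1, Plagl1 (145, 172 and 336), an imprinted zinc finger gene, and Cdc42ep1 (156, 177 and 347). Pias4 (462, 949 and 465) was highest on replicate 2, and Zbed6 (302, 139 and 279) was lowest there. Gal3st2 (864, 757 and 419), a sulfotransferase, and Smlr1 (744, 573 and 351) were highest on replicate 1 and lowest on replicate 3. Of these 10 genes, 7 had replicate 3 as the array farthest from the other pair, and of the 40 most variable genes 27 did.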

How the data were processed

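RNA was measured on an Affymetrix mouse expression array in 3 untreated samples, grouped by the replicate number in their labels. Per the submitters' processing notes, the deposited intensity values were made with MAS5 (version not given in the sources used here). Trimmed means of the signals were 350.002 on each array, so each array had been scaled by a single factor, which removes differences in total RNA. Control probe sets (64 of 45101) were left out. Of the rest, 34945 carried 1 gene symbol, 932 several and 9160 none, by the platform annotation; 34754 of the first group matched an Entrez entry of the RefSeq table.

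Each gene was read by its brightest probe set. Nothing was tested, since 1 group is described. Spread was the SD of log2(signal + 16). The text names the 30 brightest genes, up to 6 bright members of each list with members at or under background that define it, the 10 most variable genes and a fixed set (among them Lgr5, Olfm4, Lyz1, Muc2, Chga, Dclk1, Alpi, Mki67, Epcam, Vil1, Cdx2, Ptprc, Vim, Col1a1, Pecam1 and Xist). Members and lists were chosen with earlier results of these data known, and other named genes and the symbol families after their values were seen. Alternatives changed the background level, probe set choice, normalization, offset and arrays. The background step was run on simulated data. There, present genes were set to at least 200 before noise, and absent genes took values of the silent families that set the level. Present genes close to the level were not simulated, so the run cannot judge calls there. Python 3.11.15, pandas 2.3.3 and numpy 2.4.6 were used. The number of arrays limits the precision.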

Additional observations from a re-analysis of the deposited data

How the results depend on the processing

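The count of genes above background ran from 9111 (99th percentile of the silent families) to 11596 (40th percentile of all probe sets), within 1.5 times the 10882 reported, and from 10991 to 11143 when 1 array was left out. Of the 100 brightest genes, 68 remained when each gene was read by the mean of its probe sets, 84 without _x_at probe sets, and 97 to 99 when 1 array was left out. The number of lists with a median percentile over 50 was 27, or 26 without replicate 3. Single percentiles were less stable, where a move means a change larger than the SD over the 3 arrays. With the mean of probe sets, the median percentile moved in 32 of 50 lists, and without _x_at sets in 16. It moved in 3 to 11 lists when 1 array was left out. Of 16 named genes, 12 and 8 moved under the same 2 choices of probe sets. The median SD of log2 signal was 0.10 as reported, 0.0997 with an offset of 1 and 0.102 with arrays centred on their medians. It ran from 0.0750 to 0.0802 over fits that left out 1 array, which compare a pair of arrays. Counts of members at their highest or lowest on 1 array in the fetal-like, fat absorption, cytochrome, stem, goblet and Paneth lists, added after the data were seen, stayed within 1.5 times under quantile normalization, the mean of probe sets, no _x_at sets and median centring. The same was not run for the brush border hydrolases or the 30 brightest genes. Among dim genes, the median SD of log2 signal was 0.22 for mean signals under 50. No paired analysis was possible because a single group is described.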

Other observations

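Probe sets outside the ranking also held bright signals. Of 9160 probe sets without a gene symbol, 2617 were above background on all 3 untreated arrays (28.6%), and 23 were at least as bright as the 100th ranked gene. Of 932 probe sets with several symbols, 544 were above background (58.4%), and 81 were that bright.

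Choice of probe set matters for a single gene. Among 2450 genes with several probe sets and a brightest mean signal over 1000, the brightest set was a median of 19.3 times as bright as the dimmest (quartiles 4.46 and 72.2). In 718 of them the dimmest set lay under the mean background level, so a gene read by another set would fall under background there.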
